A study of Mus musculus with 2 samples.

Results

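The genes described here are 9 components and targets of the YAP-TEAD pathway, measured in bone marrow-derived macrophage cultures from calpain-6 wild-type and calpain-6-deficient mice. The genes comprise 5 transcriptional targets of the pathway (Ccn1, Ccn2, Ankrd1, Amotl2 and Ajuba) and 4 regulators (Yap1, Wwtr1, Tead1 and Lats2). They were taken by the RefSeq accession of their probes, which gave 12 of the 55681 distinct non-control probes on the array and 9 genes of the 20660 that could be named. The set was selected on the differences between these 2 arrays, which were known when it was proposed. The values below therefore describe the genes and do not test them. Amotl2 and Ajuba also act on the pathway, and Lats2 is also a target, so the division into roles is not sharp.

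The Capn6-Wt group was a culture from calpain-6 wild-type mice and the Capn6-Ko group a culture from calpain-6-deficient mice, with 1 array of pooled cells in each. The mice were male, and the sources used here do not give their strain, their age or how the Capn6 allele was made. Femoral marrow cells of both groups were grown in 10% serum with M-CSF at 50 ng/mL, the growth factor that makes macrophages, and TNF-α at 10 ng/mL, an inflammatory cytokine. The labels disagree on the time in culture (day 3 or day 4), and the design text names 4 mice in all or per group without saying which. Unbound cells were washed off, but no sort was named, so other adherent marrow cells could remain.

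YAP, encoded by Yap1, and TAZ, encoded by Wwtr1, are co-activators that switch on genes by joining TEAD proteins, which bind DNA. The kinases LATS1 and LATS2, at the end of the Hippo cascade, phosphorylate YAP and TAZ and hold them out of the nucleus. The pathway is best known in adherent cells that pull on their surroundings, such as fibroblasts, in which CCN1 and CCN2, secreted proteins of the matrix, are classical targets. YAP and TAZ are controlled largely by phosphorylation and location in the cell, which an mRNA array does not measure.

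TEAD proteins recognise the motif GGAATG, whose reverse complement is CATTCC, so the promoters of these genes were searched for it. The RefSeq promoter table (GRCm38.p6, 250 bases before to 50 after each start) held 7 of the 9 genes, all except Ccn2 and Tead1. Each of the 7 had at least 1 match to GGAATG on either strand, against 14.7% of all 32851 promoters in the table and 14.4% of the 10301 measured genes with a promoter there. In lists described below it was in 66.7% of 6 genes of TEAD proteins and their cofactors, and 41.7% of 12 of the SRF axis. It was in 27.3% of 11 further YAP/TAZ targets, 26.7% of 15 stromal markers and 0.0% of 9 macrophage markers. Scaffold and junction genes had it in 50.0% of 10, CCN genes in 50.0% of 2 and the Hippo kinase core in 26.7% of 15. These 3 lists include genes of the set. Endothelial markers had it in 16.7% of 6, and TGF-β genes and epithelial markers in 0.0% of 7 and of 5. In 6 of the 7 genes of the set with an entry the match lay before the start site, where 12.6% of all promoters had one. The Lats2 match began 4 bases after the start of 1 of its 2 promoters, and its other promoter had none. The stretches around the upstream matches are printed below because the 4 targets with an entry and both co-activator genes share this feature. The targets are in the set as genes controlled through TEAD proteins, so a TEAD motif in them is not an independent finding. Each is read 5′ to 3′ on the strand of the gene, and capitals mark the motif.
Ccn1 (chr3:145650056-145650115, minus strand): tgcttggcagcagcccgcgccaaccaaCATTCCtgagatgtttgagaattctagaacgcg
Ankrd1, distal match (chr19:36120022-36120081, minus strand): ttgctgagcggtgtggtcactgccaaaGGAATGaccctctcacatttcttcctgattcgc
Ankrd1, proximal match (chr19:36119935-36119994, minus strand): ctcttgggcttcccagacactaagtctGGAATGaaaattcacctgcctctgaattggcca
Amotl2 (chr9:102717712-102717771, plus strand): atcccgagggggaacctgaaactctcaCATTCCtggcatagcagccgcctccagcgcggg
Ajuba (chr14:54577793-54577874, minus strand): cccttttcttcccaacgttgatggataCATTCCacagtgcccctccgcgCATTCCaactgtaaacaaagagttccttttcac
Yap1 (chr9:8004705-8004764, minus strand): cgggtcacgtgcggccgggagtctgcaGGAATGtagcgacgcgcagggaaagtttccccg
Wwtr1 (chr3:57576014-57576073, minus strand): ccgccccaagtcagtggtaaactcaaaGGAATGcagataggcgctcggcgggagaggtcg

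The match began 103 bases before the start site in Ccn1, 65 in Amotl2, 141 in Yap1 and 136 in Wwtr1, or 170 from its other start. Ankrd1 had matches at 210 and 123 bases, and Ajuba at 186 and 164. None of the 7 genes had the AP-1 motif TGANTCA, a site for Fos and Jun proteins that TEAD often shares in enhancers, which 7.81% of all promoters held. None had the CArG box, the site of serum response factor, which 1.63% held. A match is a description of the letters in this window and does not show that a TEAD protein was bound there.

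**Figure D1:**
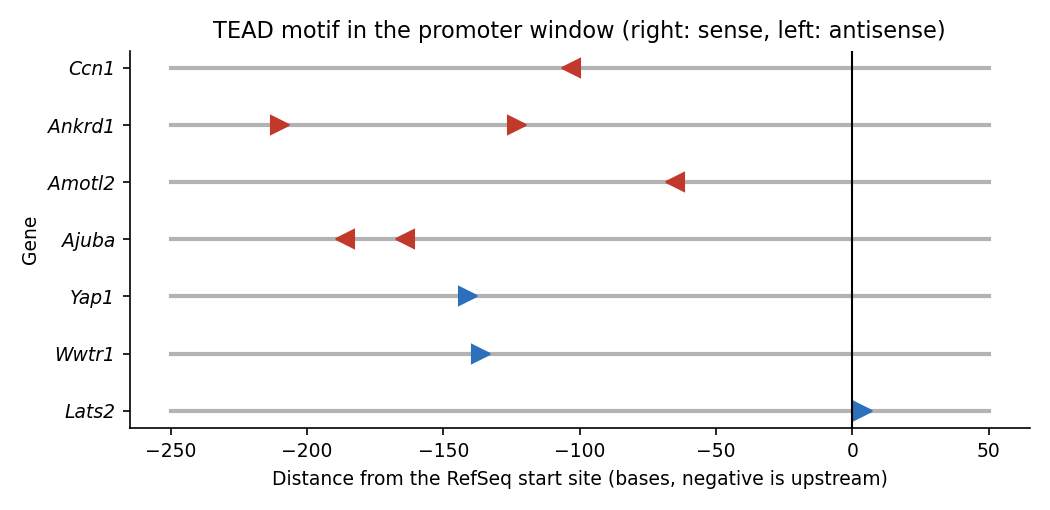
Position of each GGAATG match (triangles, pointing right on the sense strand and left on the antisense strand) from 250 bases before to 50 after the RefSeq start site, for 1 promoter of each of the 7 genes with an entry. Red marks targets and blue marks regulators. Only the Lats2 match lies past the start site.

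All 9 genes were read well above background on both arrays by at least 1 probe, and all 9 had a lower mean in Capn6-Ko, where 52.2% of all measured genes were lower by any amount. Of the 12 probes 11 were well above background on both arrays, each a single spot per array, and 10 of the 11 were lower in Capn6-Ko. Here a level is the processed signal, a background-subtracted intensity, and a difference is Capn6-Ko minus Capn6-Wt on the log2 scale after each array was set to its 75th percentile. That percentile was 377 in Capn6-Wt against 372 in Capn6-Ko. The ± after a difference is the SD expected between spots of the same probe, which leaves out mice, culture and labelling. With no replicates the difference has no replicate check, and no p-value was computed.

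The 2 CCN genes had the smallest spot errors among the targets. Ccn1, formerly Cyr61, encodes a secreted adhesive protein, and its probe A_51_P252859 read 1304 in Capn6-Wt and 848 in Capn6-Ko. Its difference was -0.60 ± 0.082, or 1.52-fold lower. Ccn2, formerly Ctgf, encodes connective tissue growth factor, and its probe A_51_P157042 read 8149 and 5789. Its difference was -0.48 ± 0.078, or 1.39-fold lower. Both were lower in Capn6-Ko by several times the spot error.

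The other targets had larger spot errors and were lower by a like amount. Ajuba, a LIM protein that restrains the LATS kinases, read 141 against 92.9 in Capn6-Ko, a difference of -0.58 ± 0.15. Amotl2, a scaffold of the angiomotin family that binds YAP, read 207 and 150.3, a difference of -0.45 ± 0.13. Ankrd1, a nuclear ankyrin repeat protein of stressed muscle and a common YAP readout, read 28.4 and 19.9. The Ankrd1 difference, -0.49 ± 0.33, is only 1.52 times its spot error, since signals this close to background vary more between spots. The 5 targets thus lay between -0.60 and -0.45, with a median of -0.49.

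Of the regulators, Yap1, Wwtr1 and Tead1 were lower by somewhat less than the targets, and Lats2 by little. Yap1 read 656 in the wild-type pool and 512 in the deficient pool, a difference of -0.34 ± 0.095. Wwtr1 was dim, at 29.3 and 21.6, and its difference of -0.42 ± 0.33 was little more than its spot error. Both co-activator genes were lower, and the Yap1 value is the firmer of the pair.

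Tead1, the DNA-binding partner in the set, had a brighter probe (A_51_P214423) at 177 in Capn6-Wt against 117 in Capn6-Ko, a difference of -0.58 ± 0.14. Its dimmer probe (A_55_P2011390) read 36.0 and 32.6, a difference of -0.12 ± 0.29. The remaining Tead1 probe read 5.38 and 3.01 and was not well above background on either array. The mean of the measured Tead1 probes was -0.35 ± 0.16. By the brighter probe Tead1 lay with the targets, and the dimmer probe was within its spot error of 0.

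Lats2, the kinase that inactivates YAP and TAZ, was at nearly the same level on both arrays. Its bright probe (A_52_P315345) read 1216 in Capn6-Wt against 1247 in Capn6-Ko, a difference of 0.055 ± 0.079. Its dim probe (A_55_P2002351), designed to another RefSeq transcript of the gene, read 66.6 and 56.8, a difference of -0.21 ± 0.21. The mean of -0.078 ± 0.11 was within the spot error.

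**Figure D2:**
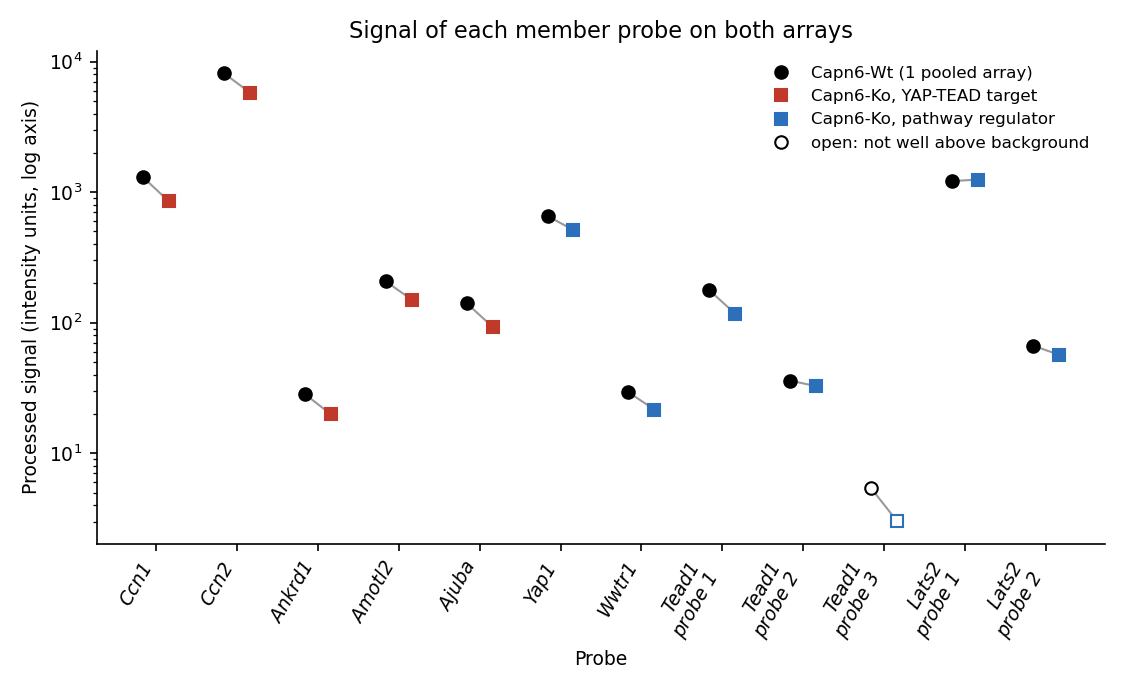
Processed signal (log axis) of the 12 probes on the Capn6-Wt array (black circles) and the Capn6-Ko array (squares, red for targets and blue for regulators). Open symbols mark the Tead1 probe that was not well above background. Every filled pair slopes down except the bright Lats2 probe, at 1216 and 1247.

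Counted by size, 8 of the 9 genes were at least 20% lower in Capn6-Ko, all except Lats2, and none was at least 25% higher. These sizes are the same step on the log2 scale. Over all 12875 measured genes 5.53% were at least 20% lower and 2.64% at least 25% higher. With each array centred on its median instead, the 712 lower and 340 higher genes became 535 and 558. The background depends on the level: 0.886% of genes above the median level were at least 20% lower, the class of Ccn1 and Ccn2, and 10.2% of those at or below it, the class of the other 7. At 1.5-fold only Ccn1 was counted, with Ajuba just under, and the share over all genes was 1.26%. Since the set was chosen with these differences in view, nothing is read from its count. The count was 4 after a background correction by the normexp model, which compresses dim signals, with Ccn1, Ccn2, Amotl2 and Ajuba left, and the share over all genes fell to 1.52%.

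**Figure D3:**
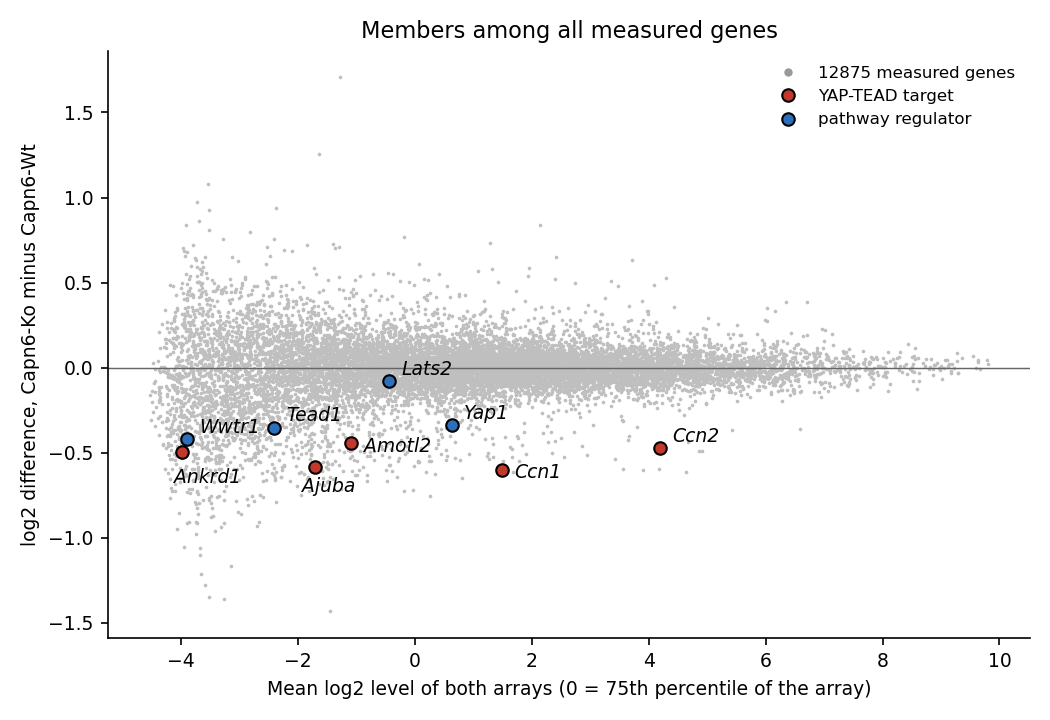
Difference of each of the 12875 measured genes (grey) against its mean log2 level on both arrays, where 0 is the 75th percentile. Targets are red and regulators blue. Ccn1 and Ccn2, at -0.60 and -0.48, lie below nearly all genes of their level, and Ankrd1 and Wwtr1 lie where the grey points spread most. The set was chosen with these differences in view.

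The targets were compared with the regulators as the main contrast within the set. The median was -0.49 for the 5 targets and -0.35 for the 4 regulators, a gap of -0.15. Every target was lower than every regulator, 20 of 20 pairs, but the gap exceeded the combined spot error in only 10 of them, and 2 such errors in 5. Lats2 gave 5 of the 10, Yap1 3 and Tead1 2. No target was lower than Wwtr1 by more than that error. In the order Ccn1, Ajuba, Ankrd1, Ccn2, Amotl2, Wwtr1, Tead1, Yap1 and Lats2, only 1 of 8 neighbouring pairs, Yap1 and Lats2, was further apart than its combined spot error, by 0.26 against 0.15. With Amotl2 and Ajuba counted among the regulators the gap was -0.107, and with only probes above the median level of all measured probes, which leaves Ccn1, Ccn2, Yap1 and Lats2, it was -0.397. Yap1 is above that median of probes, though at or below the median of gene means used for the classes of level. The order by role did not hold with Ajuba or Lats2 moved to the other role. Ajuba lay below Ankrd1 and Ccn2, and Lats2 above every regulator. Among 8 settings of the arrays' processing it did not hold under 3. By the brightest probe, or with every probe whatever its flag, Tead1 was at -0.582 or -0.508, below Ankrd1, Ccn2 and Amotl2, and 17 of 20 pairs were left. After normexp Ankrd1, at -0.115, was above Yap1 and Tead1, and 18 were left.

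**Figure D4:**
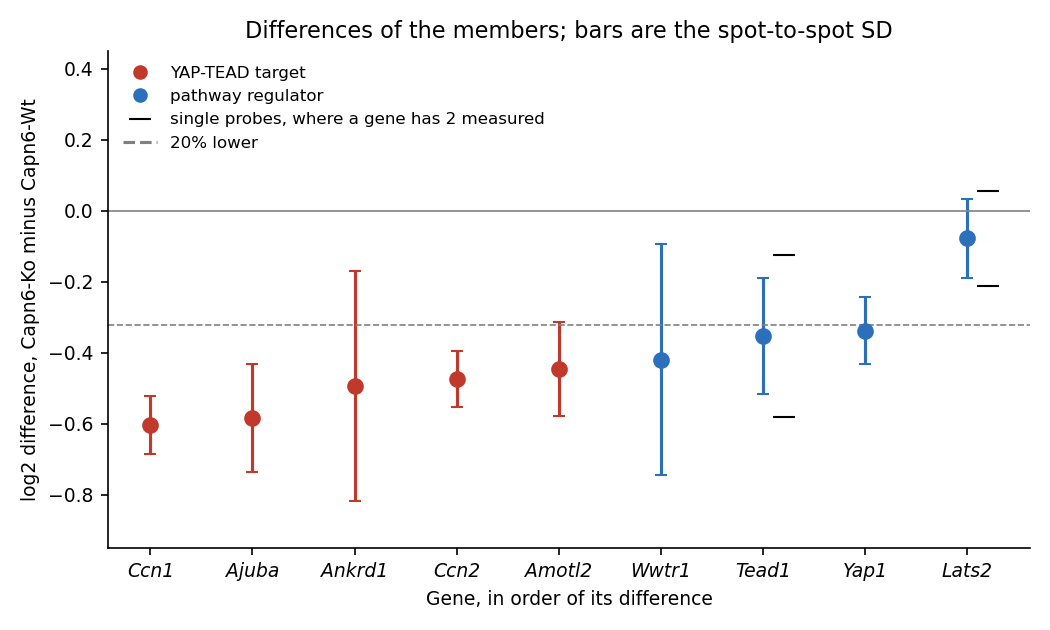
Difference of each gene, Capn6-Ko minus Capn6-Wt on the log2 scale, in order. Bars are the SD expected from spots, black dashes are single probes of Tead1 and Lats2, and the dashed line is 20% lower. The bars of all neighbours overlap except those of Yap1 and Lats2.

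Of the rest of the CCN family, Ccn4 lay between Ccn1 and Ccn2, and Ccn5 was less low and dim. Of the 6 CCN genes 4 were measured, with a median of -0.51, but Ccn1 and Ccn2 among them belong to the set chosen on these differences. The 2 outside the set, Ccn4 and Ccn5, were both at least 20% lower, with a median of -0.44. Over all measured genes 5.53% were, and 10.2% of those at or below the median level, where both lie. Nothing is read from a count over 2 genes. Ccn4, a Wnt-inducible matricellular protein, had probes at 411 and 191 in Capn6-Wt against 290.3 and 124 in Capn6-Ko, a difference of -0.55 ± 0.088. Ccn5 read 62.0 and 48.8, a difference of -0.33 ± 0.23. Ccn3 and Ccn6 were not well above background on either array, with signals from 3.10 to 4.18.

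Among the TEAD genes and their VGLL cofactors, Tead1 was the only measured gene that was at least 20% lower. Tead2 read 214 against 213 in Capn6-Ko on its brighter probe, and its mean difference was 0.0100 ± 0.14. Vgll4, which competes with YAP for TEAD, read 294 and 305, a difference of 0.073 ± 0.11. Tead3, Tead4, Vgll1, Vgll2 and Vgll3 were not well above background on either array. The Tead1 and Tead2 means differed by more than either spot error, and the dimmer Tead1 probe did not.

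The Hippo kinase cassette stood near 0. Of its 18 listed kinases, adaptors and upstream activators 15 were measured, none was past either size, and the median was -0.0080 beside -0.0056 over all genes. For 11 of the 15 the difference was within the spot error. The kinases Stk3, Stk4 and Lats1 were at -0.024 ± 0.093, -0.073 ± 0.072 and -0.0018 ± 0.15, and the adaptor Sav1 at 0.033 ± 0.084. The furthest were Nf2, the merlin tumour suppressor, at -0.18 ± 0.091, and Dchs1, a large cadherin, at 0.11 ± 0.17. Relative to its spot error the furthest was the kinase Map4k4, at -0.16 ± 0.057 over 2 bright probes. Wwc1 cleared the background limit in Capn6-Ko alone, at a signal of 16.3 that is below the lowest such signal on the other array, so no fold is given.

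Scaffold and junction proteins that bind YAP or TAZ were mixed. Of 12 measured genes of 15, 9 were lower, where 52.2% of all genes were, and the median was -0.066. At least 20% lower were 3, of which Ajuba and Amotl2 belong to the set chosen on these differences. Without those 2 genes, 7 of 10 were lower and 1 at least 20% lower, where 5.53% of all genes were, and the median was -0.023. Besides Ajuba and Amotl2 the third was Ptpn14, a phosphatase that binds YAP and is also a listed target, at 69.4 and 49.0 in signal and -0.48 ± 0.22. The related angiomotin Amot was at -0.11 ± 0.11 and the AJUBA relative Limd1 at 0.025 ± 0.076. Amotl1 was well above background in Capn6-Ko only, at signals of 20.9 in Capn6-Wt against 23.4 in Capn6-Ko. Its difference of 0.19 ± 0.33 was within the spot error. Of the 12 measured genes the furthest upward was Mpp5, the polarity protein PALS1, at 0.042 ± 0.11.

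Other genes of a published YAP/TAZ target signature did not share the level of the 5 targets. Of 14 measured genes of 17, 10 were lower and 4 higher, with a median of -0.037, where 52.2% of all genes were lower. Tgfb2, a TGF-β ligand (-0.47 ± 0.12), the RNA-binding protein gene Rbms3 (-0.46 ± 0.18) and Ptpn14 were at least 20% lower. The tissue factor gene F3 was 1.37-fold higher, at signals of 30.0 against 40.6 in Capn6-Ko, a difference of 0.45 ± 0.29. Axl, a receptor kinase that macrophages also express, was at -0.086 ± 0.078, and the stress gene Gadd45a at -0.018 ± 0.083. The choice of target list therefore sets the median, -0.49 for the 5 targets and -0.037 for these.

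**Figure D5:**
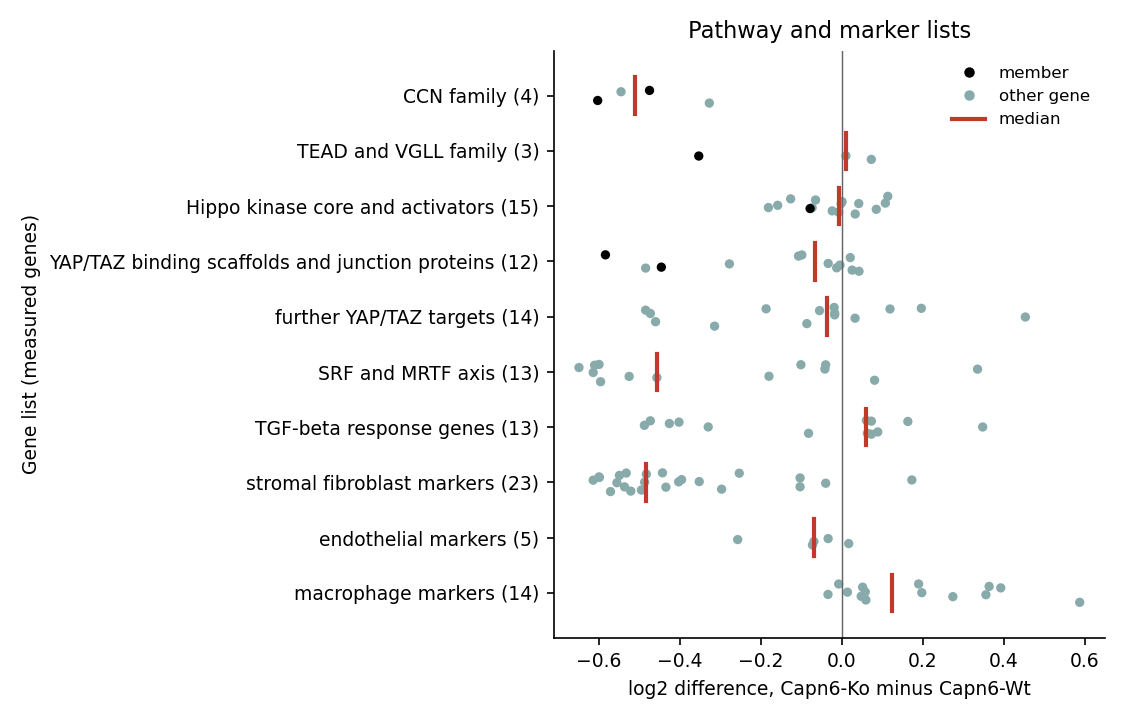
Difference of every measured gene of each list (points, with the number of measured genes after the name), the genes of the set in black and the list median as a red bar. The medians of the CCN family, the SRF and MRTF axis and the stromal markers lie between -0.51 and -0.46, and that of the Hippo kinase core lies at -0.0080.

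Markers of stromal fibroblasts were lower together with the pathway genes. Of 25 such markers 23 were measured, 22 were lower and 17 at least 20% lower, with a median of -0.48 and a range from -0.61 to 0.17. Over all measured genes 52.2% were lower and 5.53% at least 20% lower, or 10.2% of those at or below the median level. The summed level of the markers, in units of the 75th percentile of the array, was 126 in Capn6-Wt against 87.8 in Capn6-Ko, a ratio of 0.697. The ratio was 0.658 for Ccn1, 0.719 for Ccn2, 0.667 for Ajuba, 0.710 for Ankrd1, 0.734 for Amotl2, 0.747 for Wwtr1, 0.783 for Tead1, 0.791 for Yap1 and 0.947 for Lats2. The differences of 11 of the 23 stromal markers fell within the range of the 5 targets. The lowest were Tagln (-0.61 ± 0.080) and Acta2 (-0.60 ± 0.025), contractile proteins of smooth muscle and activated fibroblasts, and the highest were Thy1 (0.17 ± 0.33) and Lepr (-0.040 ± 0.058). Lum was not well above background on either array, and Twist1 was so in Capn6-Wt only, at least 1.39-fold higher there. In bulk RNA fewer cells of a type and less RNA per cell cannot be told apart, and the part of stromal content in the pathway values was not tested.

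Macrophage markers were higher or level. Of 15 markers, 14 had a named probe and were measured, 12 of them higher and 4 by at least 25%, with a median of 0.12. Over all measured genes 52.2% were lower and 2.64% at least 25% higher. The 14 markers all lie above the median level, where 44 of 6437 genes were at least 25% higher. The fractalkine receptor Cx3cr1 (0.59 ± 0.063) and the complement receptor C5ar1 (0.39 ± 0.080) were the furthest up, and Mertk (-0.034 ± 0.082) and Lyz2 (-0.0078 ± 0.082) the lowest. Their summed level was 1414 in Capn6-Wt against 1464 in Capn6-Ko, a ratio of 1.04. None of the 14 lay within the range of the 5 targets. Endothelial markers, of which 5 of 10 were measured, had a median of -0.069, between Esam (-0.26 ± 0.24) and Eng (0.017 ± 0.10), and Kdr and Vwf were at -0.034 and -0.073. Cdh5, Tek, Tie1, Emcn and Cldn5 were not well above background on either array, nor was any of 7 epithelial markers.

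Of 59305 non-control spots 51.7% were well above background in Capn6-Wt and 52.8% in Capn6-Ko, and none was saturated. The pools shared a slide and a scan, per the file headers. The only Capn6 probe read 3.93 and 8.65, at background in both pools, so the labels have no check from the targeted gene. The sources used here do not say whether the probe covers the deletion.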

How the data were processed

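Spot intensity on a linear scale was deposited for Cy3-labelled RNA. The authors ran Agilent Feature Extraction, version 10.10.1.1, per the file headers, on a design annotated on mm9. The processed signal was used, which the software had background-subtracted within each array. The authors' value table is this intensity times 2.39 for Capn6-Wt and 2.42 for Capn6-Ko. Control spots and outlier spots (161 and 136) were left out. The 75th percentile of each array was subtracted on the log2 scale, spots of a probe were averaged, and a gene is the mean over probes well above background on both arrays in most of their spots. Of 55681 probes 27235 matched a symbol in a RefSeq table of GRCm38.p6 and 28446 stayed unnamed.

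With 1 array per group no test was possible, and the number of arrays limits the precision. The spot SD came from 263 probes with at least 5 spots on each array, in 8 bins of level, and below the dimmest bin it is that bin's. The flags deposited with the files, other values of 0 or 1 that the authors' software set, served as filters. The members and lists were chosen with earlier results of these data known. Named genes are all members, the measured CCN, TEAD and VGLL genes, the furthest genes of each other list, and the 3 genes nearest to Ccn1 and to Ccn2; a few others were chosen after their values were seen. The result for 1 gene of the TGF-β list is not reported here. Alternatives changed the centring, the background correction, the probe filter, the averaging of probes and the roles. Normexp (offset 50) used the median signals in place of the planned mean signals, a column not used here. Python 3.11.15, numpy 2.4.6, pandas 2.3.3, R 4.3.3 and limma 3.58.1 were used, and the scripts were tested on simulated data.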

Additional observations from a re-analysis of the deposited data

How the results depend on the processing

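Of 113 values recomputed under 10 settings, 102 moved by no more than the spot spread (counts by no more than 1.5 times), 11 moved further and no value past 20% lower changed sign. The authors' value table and the median over probes could not move any of these values, and they add to the 102. The table is the same intensity times a constant per array, and no member has more than 2 measured probes. The spread allowed for the gap between roles was 0.191, larger than the gap itself at -0.148. A loss of that gap would therefore not have counted as a move. The median of the targets ranged from -0.539 to -0.382. After normexp the median of the regulators was -0.157 and 4 genes were at least 20% lower, where 1.52% of all genes were, and Ankrd1 and Wwtr1 stood at -0.115 and -0.0926. With only probes above the median level, which leaves 4 genes, the regulators were at -0.142, the gap between roles at -0.397, and 3 genes were at least 20% lower, against 1.3% of all genes. By its brightest probe Lats2 was at 0.0548 and Tead1 at -0.582. Centring on the median left 6 genes, without Yap1 and Tead1, and 4.16% of all genes. No gene was 25% higher under any of the 8 settings of the arrays. No paired analysis was possible because each group has 1 array. Signals near background limit Ankrd1, Wwtr1 and the dimmer probes of Tead1 and Lats2.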

Other observations

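Contractile genes of the SRF and MRTF axis, which respond to actin tension and share targets with YAP, were lower in Capn6-Ko, while the regulators of that axis were near 0. Of 13 measured genes of 14, 11 were lower and 7 at least 20% lower, with a median of -0.46. Over all measured genes 52.2% were lower and 5.53% at least 20% lower. Actg2, a smooth muscle actin (-0.65 ± 0.092), and the LIM protein gene Fhl2 (-0.61 ± 0.079) were the furthest besides Tagln and Acta2, which are also in the stromal list. Srf itself was at 0.081 ± 0.059, Mrtfa at -0.040 ± 0.057 and Mrtfb at -0.10 ± 0.13, and Filip1l went the other way at 0.34 ± 0.082.

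TGF-β pathway and response genes split. Of 13 measured genes 6 were lower and 7 higher, with a median of 0.061. At least 20% lower were 5, where 5.53% of all measured genes were. The ligand genes Tgfb2 and Tgfb3 were at -0.47 ± 0.12 and -0.43 ± 0.035. Ltbp2, a matrix protein, was at -0.40 ± 0.076. Tgfbi, a secreted adhesion protein that macrophages also make, was higher at 0.35 ± 0.082, with signals of 21715 and 27289, and Smad7, a feedback inhibitor, was at 0.089 ± 0.11.

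The genes of like level whose difference was nearest to that of Ccn1 were the collagen receptor subunit Itga11 (-0.60), the matricellular gene Smoc2 (-0.60) and Fhl2 (-0.61), among 1690 genes within 0.5 of its mean log2 level. Of those 1690 genes, 1 was as low as Ccn1, and since the set was chosen on these differences, nothing is read from such ranks. For Ccn2 they were Aebp1 (-0.44), Fn1 (-0.35) and the type I collagen chain Col1a2 (-0.60), among 885 genes, of which 3 were as low as Ccn2. Fn1 and Col1a2 were 0.123 and 0.124 from Ccn2, more than the spot error of any of these genes. Likeness here is the gap between differences over 2 arrays, and unrelated genes can have like differences.

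Over all measured genes the median difference was near 0 with and without the TEAD motif. The 1480 genes with GGAATG in a promoter window had a median of -0.0078, and the 8821 without it had a median of -0.0041. The 1480 include the 7 genes of the set with a match and also genes of the lists above. At least 20% lower were 7.84% with the motif and 4.63% without, and above the median level 1.23% and 0.621%, which rest on 9 and 28 genes. At least 20% lower were 9.41% of genes with the CArG box and 5.01% without, and 6.71% with the AP-1 motif and 4.97% without. Above the median level the CArG shares were 2.47% and 0.679%, the first resting on 2 genes, and the AP-1 shares 0.637% and 0.711%. These shares were not tested.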
